A study of Bos taurus with 6 samples.

Results

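Interferon-stimulated genes are the genes that cells switch on after interferons bind their receptors, and 38 of them were followed in the blood of fat-1 transgenic and wild type cattle. The group took in transcription factors, the enzymes that attach ISG15, RNA-binding proteins, antiviral effectors and PARP family enzymes, and left out the oligoadenylate synthetases and the cytosolic RNA sensors. A gene counted as measured where a probe of the array carried its name, as the gene name or as the bracketed symbol of the probe's description. Of the 38 genes, 35 had at least 1 probe, among 25325 gene names on the whole array. No probe carried the names IFI44L, SP110 or PML. Each gene was read from its brightest probe, the one with the highest mean log2 intensity over the 6 arrays, and its other probes were set beside it.

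RNA came from whole blood of the jugular vein of 6 female Bos taurus cattle, with 1 single-colour Agilent array for each animal. The 3 fat-1 animals carried a transgene named after the fatty acid desaturase of the nematode Caenorhabditis elegans; 1 of them, replicate 1, was aged 3.5 years and the other two 3 years. The 3 wild type animals were all aged 3 years. The labels give neither the promoter that drives the transgene nor the line of the animals, and the level of the transgene itself was not analysed here. The labels name each sample as a replicate without saying how the animals were related, so p-values measure the spread between these 6 samples.

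Type I interferons bind the IFNAR receptor, whose kinases phosphorylate transcription factors. STAT2 and IRF9 act in the complex ISGF3, which binds the promoters of interferon-stimulated genes. In blood leukocytes the response follows viral infection, and in cattle it is also seen in early pregnancy, when the conceptus releases interferon tau. Several of the induced proteins, USP18 and ISG15 among them, in turn hold the signal back.

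The arrays had 43653 probes, of which 26811 exceeded background clearly on 3 or more arrays and were tested. Between 58.4% and 63.4% of probes were well above background on each array, and the 75th percentile of processed intensity lay between 715.8 and 1067 in fat-1 animals and between 613 and 887.5 in wild type animals. A level is a probe's log2 intensity relative to that percentile of its own array, and a difference is the fat-1 mean minus the wild type mean of these levels. Wild type replicate 2 stood apart, with a mean correlation to the other arrays of 0.964, against 0.973 to 0.978 for the other 5. The fat-1 arrays were scanned in scan 1 and the wild type arrays in scan 2, so scan and group cannot be told apart. Haemoglobin and leukocyte markers were present, with all 7 monocyte markers and all 9 alpha-beta T cell markers tested. Of 12 neutrophil markers, 11 had a probe and 7 were tested. For tissues absent from blood, 2 of 5 liver markers and 3 of 5 muscle markers were tested. In whole blood, fewer cells of a type and less RNA per cell cannot be told apart.

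The interferon-stimulated genes as a group showed small differences in both directions. Of the 35 genes with a probe, 34 were tested and 0 passed an adjusted p of 0.05 (limma, Benjamini-Hochberg over all 26811 probes), where 0.187% of all 15482 genes with 1 probe each passed. The lowest adjusted p in the group was 0.324, for USP18 (limma). At an unadjusted p of 0.05, 2 genes were higher in fat-1 blood, HERC5 and IFIT2, against a background of 6.34%, and 1 gene, USP18, was lower, against a background of 6.83%. The levels of the 3 fat-1 animals lay wholly above those of the 3 wild type animals in 4 genes (HERC5, IFIT2, PARP9 and IFI44), where 7.59% of all genes did so, and wholly below in 3 (USP18, IRF1 and IFI35), where 13.0% did so. Differences were above 0 in 21 genes and below 0 in 13, against 44.7% of all genes above 0. The median difference was 0.11 in the group and -0.05 over all genes, and single genes ranged between -0.65 and 0.91. In 23 of the 34 genes the 95% confidence interval lay within 1 log2 unit of 0 on both sides, so for those genes a difference of more than 2-fold lay outside it.

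**Figure D1:**
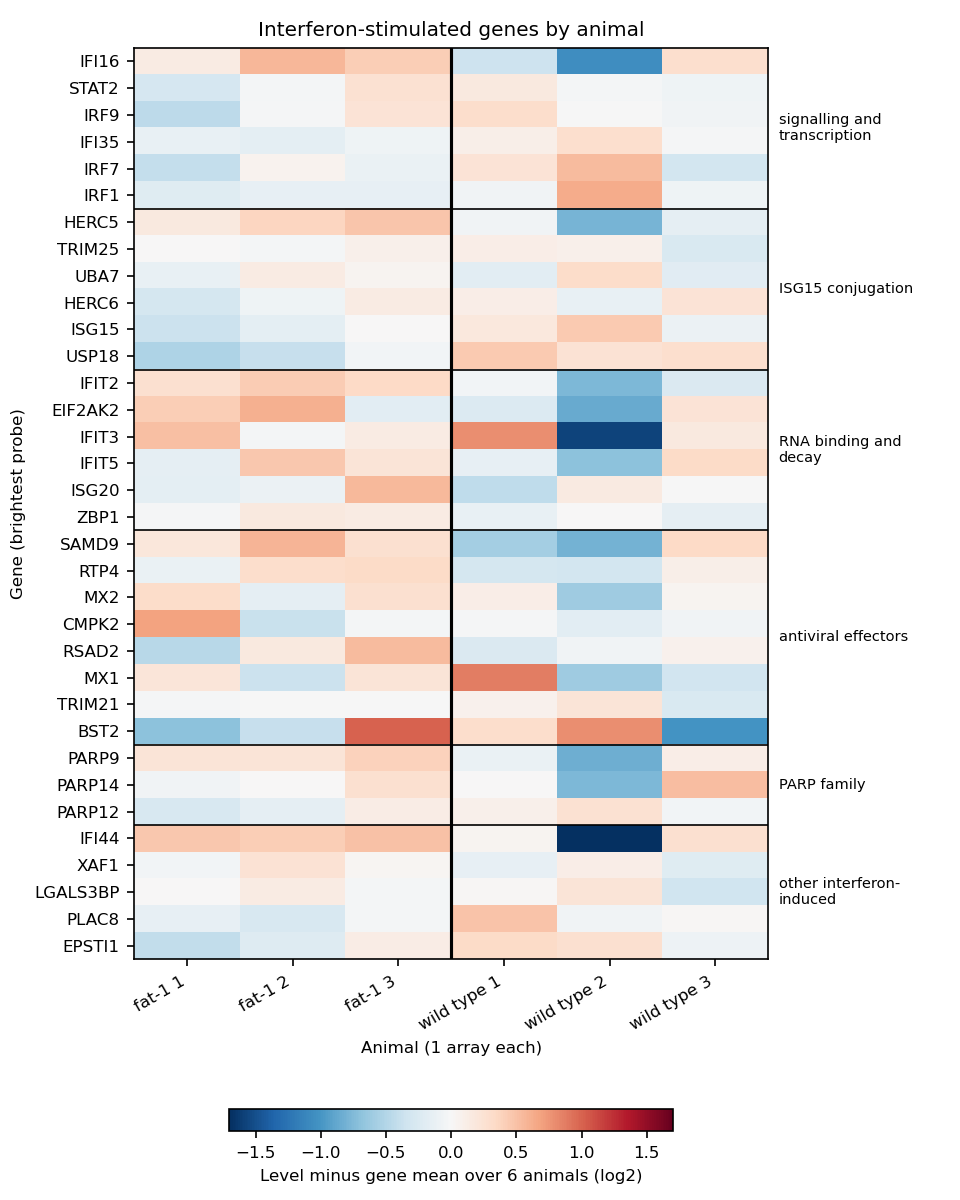
Level of each of the 34 tested interferon-stimulated genes (rows, grouped by role) in each of the 6 animals (columns, fat-1 left of the black line), as log2 units above (red) or below (blue) that gene's mean over the animals. The darkest blue cells are IFI44 and IFIT3 in wild type replicate 2, and USP18 is the row that is blue in the fat-1 animals and red in the wild type animals. IFIT3 was not well above background in wild type replicate 2.

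The intervals around each gene are drawn in the plot of differences by role. The median within-group standard deviation of the 34 genes was 0.28 log2 units, close to the 0.30 of all genes. Only the intervals of HERC5, USP18 and IFIT2 lay clear of 0.

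**Figure D2:**
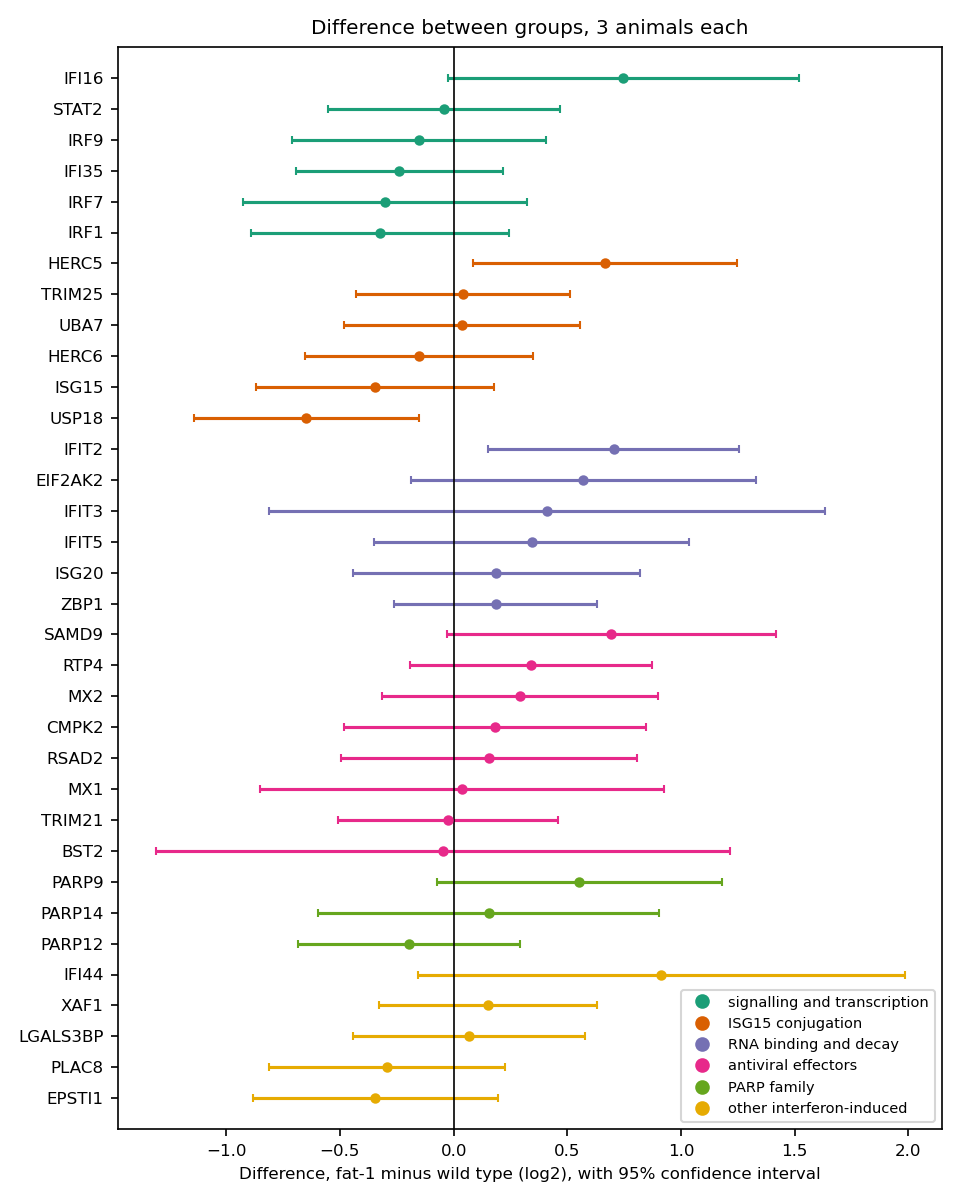
Difference between fat-1 and wild type blood (horizontal axis, log2, fat-1 minus wild type, 3 animals each) for each tested gene (vertical axis), with its 95% confidence interval from limma and its role as colour. All 6 genes of RNA binding and decay lie right of 0, while 5 of the 6 genes of signalling and transcription lie left of it.

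Among the enzymes of ISG15 conjugation, the members differed in direction, with 3 of 6 above 0, 3 below and a median of -0.06. ISG15 is a ubiquitin-like protein that UBA7 activates and HERC5, the main ligase in human cells, attaches to newly made proteins; USP18 removes it, and also binds IFNAR2 to damp type I interferon signalling. USP18 was the lowest gene of the whole group. Its brightest probe lies at chr5:81780686-81780745 and its other probe at chr5:81777669-81777728 (plus strand, Btau_3.1, as the array design gives them). The pair is shown because these separate stretches of the transcript gave like differences between the groups, though not like levels:
USP18 brightest probe: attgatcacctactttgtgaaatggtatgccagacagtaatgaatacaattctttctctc
USP18 other probe: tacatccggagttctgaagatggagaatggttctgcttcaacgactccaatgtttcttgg

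At the brightest probe, USP18 had levels of 0.15, 0.29 and 0.62 in fat-1 animals, against 1.12, 0.92 and 0.96 in wild type animals. The highest fat-1 animal lay below the lowest wild type animal. The means were 0.35 ± 0.24 in fat-1 animals and 1.00 ± 0.11 in wild type animals (SD, n = 3 each), a difference of -0.65 ± 0.22 (SE; 95% confidence interval -1.14 to -0.15), with an unadjusted p of 0.0162 and an adjusted p of 0.324 in limma. With arrays weighted by quality it was -0.75 and passed, with an adjusted p of 0.0381 in limma. In that setting 1971 of all probes passed, in place of 46. The other probe gave levels of -1.75, -2.03 and -1.48 in fat-1 animals and -0.81, -1.07 and -1.12 in wild type animals. There too the groups did not overlap, and the difference was -0.75 ± 0.23 (SE), with an adjusted p of 0.286 in limma.

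HERC5 moved the other way. Its single probe, at chr6:37076346-37076405 (minus strand, Btau_3.1), is shown because it carries the value alone, and because HERC5 has a close paralogue, HERC6, whose probes lie at chr6:37128613-37128703. The longest run of bases that the HERC5 probe shared with a HERC6 probe was 14 of 60:
HERC5 probe: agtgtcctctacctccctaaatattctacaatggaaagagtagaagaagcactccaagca
Levels of HERC5 were -0.31, -0.11 and 0.01 in fat-1 animals, against -0.53, -1.25 and -0.62 in wild type animals. All 3 fat-1 animals lay above all 3 wild type animals, and wild type replicate 2 was the lowest. The difference was 0.66 ± 0.25 (SE; 95% confidence interval 0.08 to 1.24), with an unadjusted p of 0.0293 and an adjusted p of 0.363 in limma; without wild type replicate 2 it was 0.44. HERC6, the main ISG15 ligase in mouse cells, had a difference of -0.15, with a 95% confidence interval of -0.66 to 0.35.

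ISG15 itself had levels of 1.83, 2.03 and 2.19 in fat-1 animals and 2.36, 2.63 and 2.09 in wild type animals. The groups overlapped through fat-1 replicate 3 and wild type replicate 3, and the difference was -0.35 ± 0.23 (SE), with an adjusted p of 0.489 in limma. Its other probe gave -0.34, but the probes share 28 of their 60 bases, in capitals below, so they are not fully separate measurements (chr16:48718882-48718973, minus strand, Btau_3.1):
ISG15 brightest probe: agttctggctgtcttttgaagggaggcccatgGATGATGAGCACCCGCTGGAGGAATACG
ISG15 other probe: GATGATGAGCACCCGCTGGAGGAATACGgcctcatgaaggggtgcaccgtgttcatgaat
The activating enzyme UBA7 and TRIM25, a ligase that also acts on the RNA sensor RIG-I, each had a difference of 0.04, with intervals of -0.48 to 0.55 and -0.43 to 0.51.

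Of the genes of signalling and transcription, 1 was above 0 and 5 were below, with a median of -0.20. STAT2, a subunit of ISGF3, had a difference of -0.04 and IRF9, its DNA-binding partner, -0.15. IRF7, which drives interferon alpha genes, had -0.30, and its 2 probes share 54 of 60 bases, so they are not separate measurements. IRF1, a factor induced by interferon gamma, had levels of 4.89, 4.96 and 4.96 in fat-1 animals, against 5.03, 5.73 and 5.02 in wild type animals. The groups did not overlap, but the gap between them was small and wild type replicate 2 lay far above the other 5. The IRF1 difference of -0.33 had an adjusted p of 0.539 in limma, and without wild type replicate 2 it was -0.09. IFI35, an interferon-induced leucine zipper protein, had levels of 4.09, 4.04 and 4.14 in fat-1 animals, against 4.31, 4.49 and 4.18 in wild type animals, and a difference of -0.24 with an adjusted p of 0.567 in limma. Its other probe gave -0.39, again with no overlap between the groups.

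IFI16, a nuclear DNA-binding protein of the PYHIN family, was the member of this role above 0. Its levels were 2.67, 3.09 and 2.94 in fat-1 animals, against 2.18, 1.47 and 2.81 in wild type animals. Wild type replicate 3 lay within the fat-1 range and wild type replicate 2 far below it. The difference was 0.75 ± 0.34 (SE), with an unadjusted p of 0.0563 and an adjusted p of 0.395 in limma.

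The genes of RNA binding and decay were the role in which every tested member had a difference above 0 at its brightest probe, 6 of 6 with a median of 0.38. With normexp background correction IFIT3 turned to -0.12, without wild type replicate 2 it was -0.27, and with arrays weighted by quality -0.45. Without fat-1 replicate 3 ISG20 was -0.04. IFIT proteins bind viral RNA by its 5′ end or act within the complexes that do so. IFIT2, which joins IFIT1 and IFIT3 in such a complex, had the lowest p of the role. Its single probe, at chr26:11431248-11431307 (plus strand, Btau_3.1), is shown because no other probe checks it:
IFIT2 probe: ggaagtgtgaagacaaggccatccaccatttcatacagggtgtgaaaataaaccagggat
IFIT2 had levels of -1.30, -1.14 and -1.24 in fat-1 animals, against -1.63, -2.34 and -1.82 in wild type animals. The fat-1 animals lay close together and all above the wild type animals. The difference was 0.70 ± 0.24 (SE; 95% confidence interval 0.15 to 1.26), with an unadjusted p of 0.0183 and an adjusted p of 0.334 in limma. With normexp background correction it was 0.41, with an unadjusted p of 0.114 in limma, and it was 0.50 without wild type replicate 2 and 0.46 with arrays weighted by quality.

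IFIT3, which stabilises IFIT1 on RNA in human cells, had levels of -2.52, -3.07 and -2.90 in fat-1 animals and -2.25, -4.60 and -2.86 in wild type animals. The wild type animals held both the highest and the lowest value, and the 95% confidence interval of the difference ran between -0.81 and 1.63. The lowest value, in wild type replicate 2, was not well above background. IFIT5, which binds RNA with a 5′ triphosphate, had a difference of 0.34, and EIF2AK2, the kinase PKR that stops translation on double-stranded RNA, had 0.57 with an adjusted p of 0.453 in limma. ISG20, an exonuclease of single-stranded RNA, and ZBP1, which binds Z-form nucleic acids, had 0.19 and 0.18. The other ZBP1 probe gave -0.15, and the mean of the ZBP1 probes 0.02. IFIT1 was the 1 gene with a probe that was not tested. Its probe had levels of -4.50, -5.12 and -7.31 in fat-1 animals and -7.10, -4.35 and -6.46 in wild type animals, and was well above background in wild type replicate 2 alone.

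The antiviral effectors had 6 of 8 differences above 0 and a median of 0.17, and the groups overlapped in all 8 genes. SAMD9, which restricts poxviruses, had levels of 3.54, 3.92 and 3.61 in fat-1 animals, against 2.76, 2.55 and 3.69 in wild type animals. Wild type replicate 3 lay among the fat-1 animals and the others about 1 log2 unit below them. The difference was 0.69 ± 0.32 (SE), with an unadjusted p of 0.0584 and an adjusted p of 0.396 in limma. Without wild type replicate 2 it was 0.47. With arrays weighted by quality it was 0.90 and passed, with an adjusted p of 0.0473 in limma, where 1971 of all probes passed in place of 46. The other SAMD9 probes, both much dimmer, gave 1.06 with no overlap between the groups and 0.10 with overlap. In wild type replicate 2 neither of them was well above background.

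MX1 and MX2 are dynamin-like GTPases that block virus entry or transport, and MX1 is a widely used blood marker of the interferon response in cattle. MX1 had levels of 4.22, 3.65 and 4.22 in fat-1 animals and 4.88, 3.41 and 3.68 in wild type animals. The fat-1 range lay wholly inside the wild type range, and the difference was 0.04 ± 0.39 (SE; 95% confidence interval -0.85 to 0.92). Without wild type replicate 1 it was 0.48, without wild type replicate 2 it was -0.26, and with arrays weighted by quality it was -0.74. MX2 had 0.29, which turned to -0.13 with normexp background correction, as RSAD2 (viperin) and its neighbour CMPK2 also turned, with 0.16 and 0.18 on the main scale and -0.08 and -0.12 with normexp.

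BST2 (tetherin), which holds budding virus at the cell surface, spread the most within groups. Its levels were -0.53, -0.22 and 1.17 in fat-1 animals and 0.46, 0.96 and -0.85 in wild type animals. Each group thus held animals more than 1 log2 unit apart, and the within-group standard deviation of 0.92 was higher than in 97.1% of all genes. The BST2 difference was -0.05, with an interval of -1.31 to 1.21 that leaves a large difference either way unmeasured. TRIM21, an antibody receptor inside cells, had -0.02 and RTP4, a receptor transporter protein, had 0.34.

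**Figure D3:**
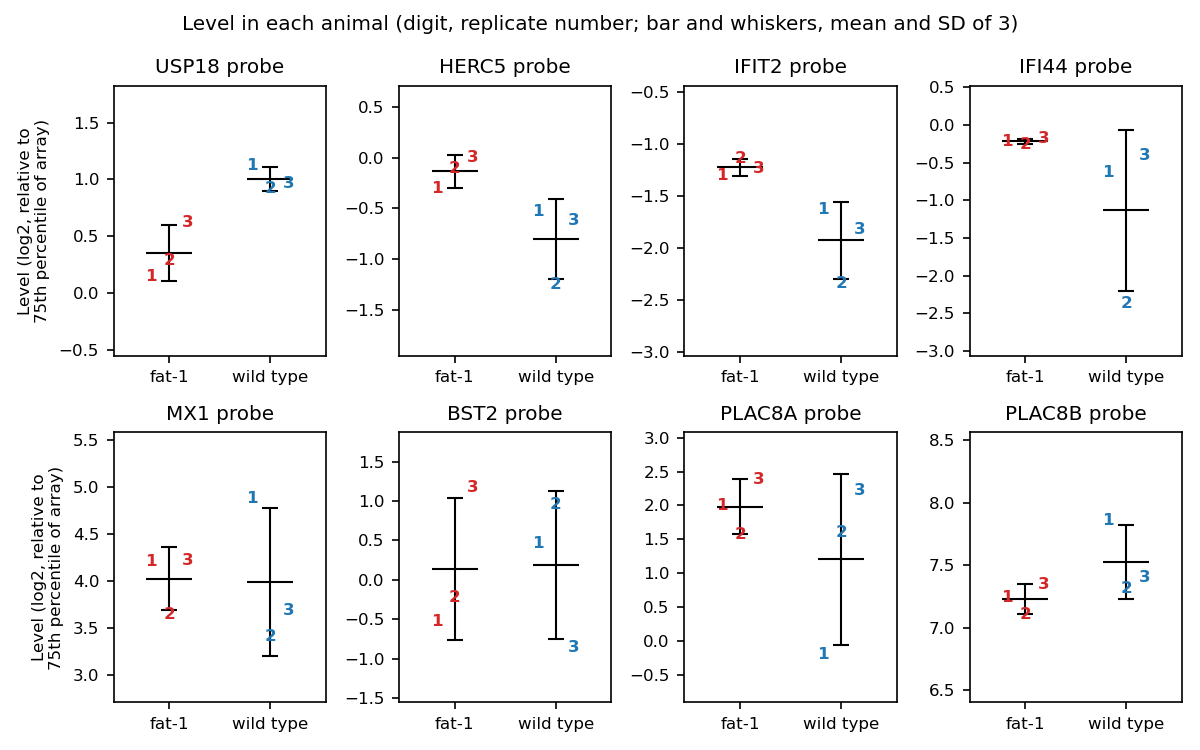
Level (vertical axis, log2 relative to the array's 75th percentile, with its own scale in each panel) of 8 probes in each animal, fat-1 left and wild type right; digits are replicate numbers, and bars and whiskers the mean and SD of 3 animals. USP18, HERC5 and IFIT2 separate the groups, while MX1 and BST2 overlap, and single wild type animals lie far from the rest for IFI44 (replicate 2) and PLAC8A (replicate 1).

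In the PARP family, PARP9, which pairs with the ubiquitin ligase DTX3L, had levels of 1.11, 1.11 and 1.27 in fat-1 animals, against 0.77, 0.06 and 1.00 in wild type animals. All fat-1 animals lay above the wild type animals, by little for wild type replicate 3. The difference was 0.55 ± 0.27 (SE), with an unadjusted p of 0.0773 and an adjusted p of 0.415 in limma, and its other probes gave 0.53 and 0.70. Without wild type replicate 2 it was 0.28. DTX3L, not a member of the group, had a difference of 0.65 with an adjusted p of 0.324 in limma, at its brightest probe. PARP14, another mono-ADP-ribosyltransferase, had 0.15 and PARP12, a zinc finger member of the family, had -0.20.

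IFI44, an interferon-induced protein first described in hepatitis, had the highest difference of the group. Its levels were -0.22, -0.26 and -0.18 in fat-1 animals, against -0.63, -2.36 and -0.40 in wild type animals. The fat-1 animals lay within 0.07 log2 units of one another, and wild type replicate 2 stood far below all others. The difference was 0.91 ± 0.47 (SE), with an unadjusted p of 0.0846 and an adjusted p of 0.420 in limma, and it was 0.30 without wild type replicate 2. XAF1, a partner of the apoptosis inhibitor XIAP, had 0.15, the secreted glycoprotein LGALS3BP had 0.07 and the epithelial-stromal interaction protein EPSTI1 had -0.34.

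PLAC8, a small cysteine-rich protein, split by probe. RefSeq now gives separate symbols to its targets, PLAC8A and PLAC8B, and the 4 PLAC8A and 2 PLAC8B probes share no run longer than 6 bases. One of each is shown, at chr6:101729984-101730043 and chr6:101662321-101662380 (minus strand, Btau_3.1), because they read different genes under 1 name:
PLAC8A probe: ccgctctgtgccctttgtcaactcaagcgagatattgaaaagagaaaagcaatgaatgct
PLAC8B probe: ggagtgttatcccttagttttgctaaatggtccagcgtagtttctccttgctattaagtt
The PLAC8B probe was the brightest of PLAC8, with levels of 7.24, 7.10 and 7.34 in fat-1 animals and 7.86, 7.31 and 7.40 in wild type animals, and a difference of -0.30. The PLAC8A probe had levels of 2.00, 1.57 and 2.38 in fat-1 animals and -0.20, 1.60 and 2.22 in wild type animals. Wild type replicate 1 was low at all 4 PLAC8A probes, and at the PLAC8B probe the same animal was the highest of the 6. Of the PLAC8A probes, 2 share a run of 49 of 60 bases, so they are not separate measurements. The PLAC8A differences ran between 0.78 and 0.89, with adjusted p-values between 0.520 and 0.559 in limma, and the mean of all PLAC8 probes gave 0.46.

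Over the whole group, 22 genes had a further tested probe, 31 such probes in all. Of these 31, 22 had a difference of the same sign as the brightest probe and 9 the opposite sign. The 9 include the 4 PLAC8A probes, which read a different gene from the brightest PLAC8 probe. Among the 22 are probes of IRF7, ISG15 and HERC6 that share a run of bases with the brightest probe. In 16 of the 22 genes every probe had the same sign.

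Wild type replicate 2 was the lowest of the 6 animals in 13 of the 34 genes, 38.2%, and all 13 were among the 21 genes with a difference above 0. A low value in a wild type animal itself raises the difference, so this tie was partly built in. Over all genes wild type replicate 2 was lowest in 25.3%. It was the highest animal in 23.5% of the 34 genes, against 40.1% of all genes. Fat-1 replicate 1, the older animal, was lowest in 10 of the 34, 29.4%, against 22.1% of all genes. Without wild type replicate 2 the median difference was 0.09, the highest difference in the group was 0.50, for IFIT2, and at an unadjusted p of 0.05 IFIT2 stayed higher and USP18 lower (limma, lowest adjusted p 0.441). The plot with and without wild type replicate 2 shows that IFIT3, PARP14 and MX1 lay below 0 without that animal, and BST2 and TRIM21 above 0. The summed red cell marker level was 9.05 to 10.0 log2 units in fat-1 animals, against 10.3 in wild type replicate 2 and 6.62 and 7.02 in the other wild type animals. Red cell content and its part in these values was not tested.

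**Figure D4:**
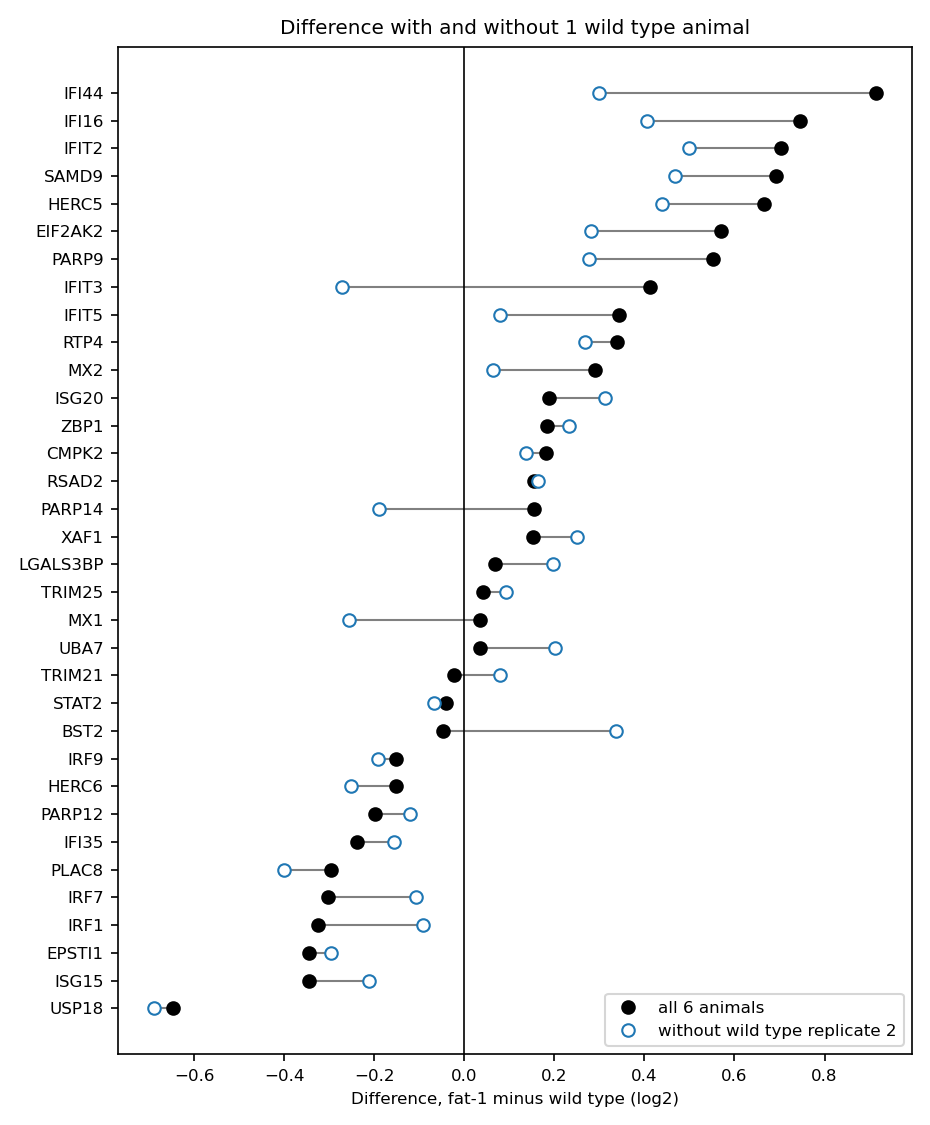
Difference between fat-1 and wild type blood (horizontal axis, log2) for each tested gene (vertical axis), with all 6 animals (filled points) and without wild type replicate 2 (open points), joined by a line. The upper genes move towards 0 without this animal, IFI44 to 0.30 and IFI16 to 0.41, whereas USP18 stays at -0.69.

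The base composition of the probes moved with the difference on these arrays. Over all probes the median difference was 0.12 for probes with at most 35% G and C and -0.32 for those above 55%, and wild type replicate 2 deviated the most. Probes of the interferon-stimulated genes held between 30% and 55% G and C, with a median of 41.7% both in the genes above 0 and in those below. With each array centred within classes of G and C content, HERC5 and IFIT2 remained higher and USP18 lower at an unadjusted p of 0.05, and 0 genes passed the adjusted threshold (limma). The same centring brought IRF7 to 0.005, IFI35 to -0.02 and ISG15 to -0.13. Genes above 0 moved as well, with IFI16 at 0.55, SAMD9 at 0.50 and EIF2AK2 at 0.38. Others moved away from 0, with USP18 at -0.84, PLAC8 at -0.49 and ZBP1 at 0.40.

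Markers of other cell types were set beside these values. At their brightest probes, 4 of 4 gamma-delta T cell markers (WC1.3, CD163L1, SOX13 and TRGC6) were lower at an unadjusted p of 0.05 (limma). The share of all genes was 6.83%. The median difference was -1.47. The summed level was 2.73 to 4.73 log2 units in fat-1 animals, against 5.02 to 5.90 in wild type animals. None of these brightest probes passed the adjusted threshold, the lowest adjusted p being 0.144 in limma. Another WC1.3 probe passed, with a difference of -1.84 and an adjusted p of 0.0474 in limma. Plasmacytoid dendritic cells, a main source of type I interferon, had a summed marker level of 4.23 to 4.78 in fat-1 animals and 4.17 to 4.99 in wild type animals, and monocytes 7.55 to 7.91 in fat-1 animals and 7.43 to 7.79 in wild type animals. The ranges of these 2 cell types overlapped, though 1 of 7 monocyte markers, CX3CR1, was higher at an unadjusted p of 0.05 (limma). The B cell sums did not overlap, at 5.93 to 6.04 in fat-1 animals and 6.12 to 6.84 in wild type animals. The gap was small, and 13.0% of all single genes lay wholly lower in fat-1 animals. At that p, 1 of 5 B cell markers was lower, and of 6 NK cell markers 2 were higher and 1 lower (limma). The shares of all genes were 6.34% higher and 6.83% lower. The part of cell composition in the values of the interferon-stimulated genes was not tested.

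The upstream genes of the pathway were measured on the same arrays. Of 27 listed genes of interferon signalling, 25 were tested, 0 passed the adjusted threshold and 0 had an unadjusted p under 0.05 (limma). Over all genes 0.187% passed the adjusted threshold, and at the unadjusted p 6.34% were higher and 6.83% lower. The lowest p-values were those of the kinase JAK2, with a difference of 0.81, SOCS1, an inhibitor of the JAK kinases, with -0.74, IRF3, which starts interferon transcription, with -0.43, and the adaptor TICAM1, with -0.42. The receptor chains IFNAR1 and IFNAR2 had differences of 0.11 and -0.02.

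Of 18 listed interferon genes, 6 had a probe and 1, IFNG, was tested. IFNG, the interferon of T and NK cells, had levels of -3.12, -3.27 and -1.91 in fat-1 animals, against -6.81, -5.28 and -4.83 in wild type animals. IFNG was well above background in all 3 fat-1 animals and in 0 wild type animals, so it was tested through the fat-1 animals alone. As a bound, its fat-1 level was higher by at least 4.26-fold. The bound sets the fat-1 mean against the lowest signal well above background on each wild type array, or the probe's own where that is higher. Its adjusted p was 0.107 in limma, short of the threshold.

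The other interferon-induced genes, which include those left out of the group, held the only changes of the pathway that passed. Of 61 listed genes 54 were tested, and OAS1X, an oligoadenylate synthetase, rose at least 12.2-fold in fat-1 blood while IFI27, a mitochondrial protein, fell by 2.05 on the log2 scale (adjusted p 0.000257 and 0.0274 in limma). At an unadjusted p of 0.05, 8 of the 54 were higher and 6 lower (limma), where 6.34% of all genes were higher and 6.83% lower. IFIH1, the RNA sensor MDA5, had a difference of 2.37 and GBP5, a guanylate-binding protein, 2.25, with adjusted p-values of 0.107 and 0.121 in limma.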

How the data were processed

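Spot intensity was deposited by the authors for each array as processed signal, which the file headers record as background-subtracted, detrended and unscaled between arrays; the submitters' processing notes name Agilent Feature Extraction, version 10.7.1.1. A deposited table holds log2 values of the same 43653 probes with a column median of 6.38 on every array, whose normalization the labels and headers do not state. It tracked its own array's scanner values with r of at least 0.9994.

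Spots of a probe were averaged, 48 probes flagged as outliers were left out, and log2 intensity minus the array's 75th percentile was fitted by group with limma 3.58.1 in R 4.3.3 (lmFit, eBayes, Benjamini-Hochberg over 26811 probes), after a check on simulated data. Members and lists were chosen with earlier results of these data known. Values per animal are given for members with an unadjusted p under 0.05 and for the lowest p of each role; those of other members were chosen after their values were seen. Of each pathway list, up to 4 genes with the lowest p are named; IFNAR1, IFNAR2 and DTX3L were added later. Same-numbered animals had deviations that correlated at 0.12, 0.19 and 0.01, so numbers were not taken as pairs. Probe sequences, names and Btau_3.1 positions come from the array design, per the file headers, and PLAC8A and PLAC8B from RefSeq accessions. Promoter sequences were not used here. Alternatives covered background correction, scaling, filters, variance trend, array weights, the deposited table, probe averaging, a replicate block, single arrays left out and, chosen after seeing the data, centring within G and C classes.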

Additional observations from a re-analysis of the deposited data

How the results depend on the processing

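The count of 0 interferon-stimulated genes past an adjusted p of 0.05 in limma held under every alternative except array weights. With array weights 2 genes passed, USP18 (-0.75, adjusted p 0.0381) and SAMD9 (0.90, adjusted p 0.0473), while 1971 of all probes passed in place of 46; the cause was not tested. Leaving out single animals gave 0 throughout, with adjusted p-values no lower than 0.0966 (without wild type replicate 3).

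At an unadjusted p of 0.05 in limma, 2 genes were higher. The count was 4 with normexp background correction (IFI16, HERC5, SAMD9 and PARP9, without IFIT2), 4 with probes well above background on all arrays, 7 with array weights and 5 with an intensity trend. With 1 animal left out it ran between 0 (fat-1 replicate 2 dropped) and 7 (wild type replicate 3 dropped). The count of lower genes was 1 (USP18), 4 with array weights, and between 0 and 1 with 1 animal left out, being 0 where wild type replicate 1, fat-1 replicate 1 or fat-1 replicate 2 was dropped. With the replicate block 4 genes were higher, 0 passed the adjusted threshold and 105 of all probes passed; the numbers were not taken as pairs. The median difference of 0.11 ran between 0.0146 and 0.159 with 1 animal left out. Of all probes, 116 passed with normexp, 121 with an intensity trend, 16 with quantile scaling, 16 in the authors' deposited table, 14 with no filter on dim probes, and between 8 and 55 with 1 animal left out.

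The direction of 28 of the 34 genes stayed the same with normexp, of 31 with quantile scaling, of 31 in the authors' deposited table and of 28 within G and C classes. STAT2 and TRIM21 turned above 0 with the first 3 of these, and IRF9, at 0.04, with quantile scaling and the deposited table. With 3 animals a group the number of arrays limits the precision, and dim probes such as that of IFIT1 lie near background, where no difference could be read.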
